A study of Mus musculus with 6 samples.

Results

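The respiratory chain of mitochondria was followed through 102 genes in cells labelled erythroid precursors from the fetal liver of wild type and -77-/- mouse embryos. Members were taken from the 19436 usable rows of the table by symbol: all names that start with Nduf, Uqcr, Atp5, Cox4, Cox5, Cox6, Cox7 or Cox8, the succinate dehydrogenase genes Sdha, Sdhb, Sdhc and Sdhd, the cytochrome c gene Cycs, and the protein-coding genes of the mitochondrial genome. Of these, 89 are nuclear genes and 13 are mitochondrially encoded. The pseudogene Atp5l-ps1 was left out by the rule. Cox4nb is a member by its name only, since it encodes a subunit of a membrane protein complex of the endoplasmic reticulum, and it was kept in the counts.

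All embryos were of strain C57BL/6 and stage E14.5. The -77-/- embryos lack both copies of the -77 enhancer, which lies upstream of the gene for GATA2, a factor that blood stem cells and early progenitors need, while wild type embryos carry both copies. Cells were sorted for intermediate CD71, the transferrin receptor, and absence of Ter119, a marker of maturing red cells, and 10 ng of their RNA went into each library. Each genotype had 3 libraries, and the labels do not state that these were separate embryos, so a p-value here reflects the spread of the libraries only, which may be technical. Library totals ran from 16516338 to 20468899 reads. Values are normalized reads, that is, gene counts divided by 1 size factor per library, and triplets of values are given in the order of replicates 1 to 3. Fold changes are differences of means on the log2(value + 1) scale, -77-/- minus wild type, with a standard error (SE) and an adjusted p from limma over all 15821 genes tested, and 0.05 was the threshold. Levels were not compared between genes, because no transcript lengths of the build used were at hand.

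The chain passes electrons from NADH (complex I) and succinate (complex II) through ubiquinone to complex III, on to cytochrome c and then to complex IV, which reduces oxygen. Complexes I, III and IV pump protons across the inner membrane, and ATP synthase uses the return flow to make ATP. Complex II is wholly nuclear encoded, whereas the other complexes join nuclear subunits to a few made inside the organelle, so both genomes must be expressed. Red cell precursors depend on mitochondria for haem synthesis and later clear them, whereas monocytes and granulocytes keep them.

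Some features of the libraries bear on every value below. Erythroid markers were lower in -77-/- for 12 of 12 genes without overlap (11 past the threshold), with summed levels of 46732 to 49711 in wild type and 3210.03 to 7811 in -77-/-. Most of each -77-/- sum was Tfrc, the gene of the sorting marker CD71. Tfrc had 17456, 14441 and 11831 in wild type and 4140, 2367 and 3413 in -77-/-. Monocyte and macrophage markers were higher for 10 of 10, with sums of 1519 to 2677 and 26680.2 to 38002. Granulocyte markers moved both ways, 4 higher and 3 lower of 10, and their sums were 14215 to 24801 and 44728 to 48759. Of the markers of early progenitors, 5 of 7 tested were higher and 1 lower (sums 4843 to 5569 and 10902 to 11419), and of B cell markers 6 of 8 were higher (587 to 913 and 1889.9 to 3529). Mast cell and basophil markers had 2 of 5 lower, megakaryocyte markers 1 higher and 2 lower of 5 tested, and hepatocyte markers 1 of 5 tested higher. Read in full, those last lists summed to 4510.1 to 5247 and 1893 to 2293, to 447 to 699.7 and 279 to 553, and to 76.8 to 209.7 and 249 to 1249.9. Most of the mast cell and basophil sum was Kit, with means of 4596 in wild type and 1939 in -77-/-. Kit is also the early progenitor marker that was lower. Hdc was the other lower mast cell marker, while Mcpt8 lay higher in -77-/- without overlap and did not pass. Gp1bb was at 0 in -77-/- and Apoa2 at 0 in wild type, and no other marker was at 0 throughout a genotype. Thus the libraries labelled erythroid precursors held erythroid RNA in both genotypes, at very different levels. Those of -77-/- also held far more RNA of monocyte and macrophage markers than wild type, and larger sums of granulocyte and early progenitor markers. Most of the granulocyte sum was Mpo, with means of 11805 in wild type and 38959 in -77-/-. Most of the early progenitor sum in -77-/- was Cd34, with means of 291 in wild type and 7138.5 in -77-/-. These sums say little about the other genes of their lists. The label therefore does not describe the 2 genotypes equally well. The part of these differences in the results on the chain was not tested, and in bulk RNA fewer cells of a type and less RNA per cell cannot be told apart.

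Most respiratory chain genes had lower means in -77-/-, by modest amounts: 84 of the 100 members that passed the filter on low values had a log2 fold change below 0 and 16 one above. Of the 100, 37 fell, 1 rose and 62 did not pass the test. Over all tested genes, 15.2% were called lower and 16.9% higher. The median log2 fold change was -0.41 for these members and 0.10 for all tested genes. In 48 of the 100 the libraries of -77-/- lay below all those of wild type and in 4 above, against 21.4% and 25.0% of all tested genes. Decreases of at least 2-fold were seen in 9 members: Atp5l, Cox6b2, Uqcr11, Ndufaf4, Atp5k, Ndufaf1, Ndufa5, Uqcrq and Ndufb6. The nuclear members carried most of this, with 35 of 87 lower and a median of -0.45, while 2 of the 13 mitochondrial mRNAs were lower and their median was -0.23. Cox7a1 and Ndufa4l2 did not pass the filter. Cox4i2 and Cox6a2 passed it only through their level in -77-/-.

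Scaling sets the number of calls. With libraries scaled to equal medians of the tested genes, 68 members were lower and 1 higher (22.1% and 13.8% of all tested genes, whose median was then -0.10). With equal sums of reads outside the mitochondrial genome, 32 were lower and 2 higher (13.7% and 18.3%, median 0.16). The median of the members was -0.61 with equal medians and -0.35 with equal sums, below that of all tested genes in both. Of the 37 lower members, 21 were called lower in each of the 15 alternative settings. The authors' deposited table called 41 members lower and 1 higher, and these included the 37 and the 1 found here.

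**Figure D1:**
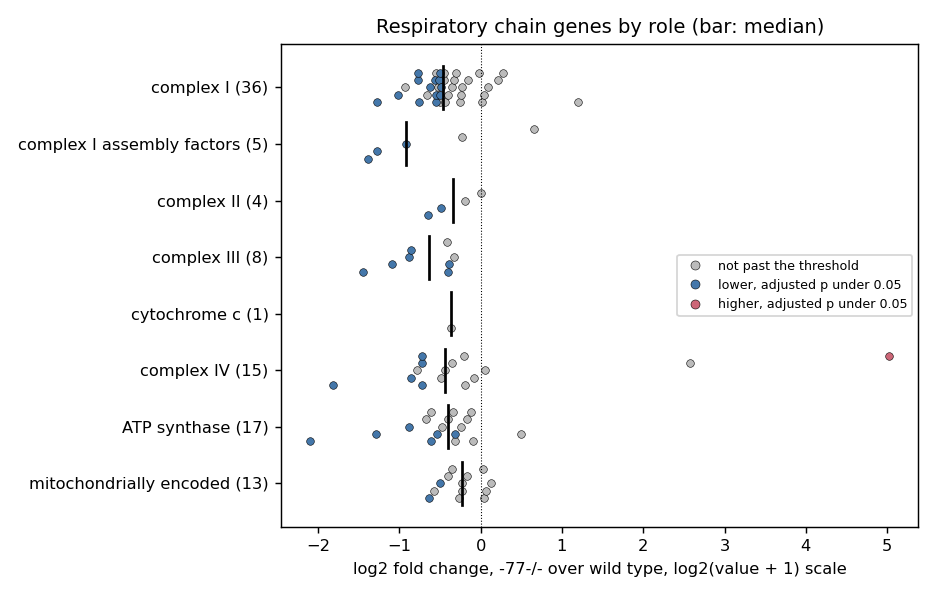
Log2 fold change (-77-/- over wild type, horizontal axis) of 99 tested members, grouped by role with the number of genes in brackets; Cox4nb is not drawn. Blue points are lower and the red point, Cox4i2, higher past the threshold, grey points did not pass, and each bar is a group median, which is below 0 in all 8 groups.

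Sequence from RefSeq (GRCm38.p6) shows what lies upstream of a few of these genes. The windows are the 250 bases before the annotated start, 5′ to 3′ on the gene's strand, and capitals mark matches, on either strand, to the core bound by nuclear respiratory factor NRF1 (GCGCA, any base, then GCGC) or to CCGGAAG, a core of ETS factors such as GABP. The first 3 genes fell in -77-/-, and Sdha, which did not pass, is shown beside them because it holds more NRF1 matches than they do.
Ndufaf4 (chr4:24897833-24898082, plus strand): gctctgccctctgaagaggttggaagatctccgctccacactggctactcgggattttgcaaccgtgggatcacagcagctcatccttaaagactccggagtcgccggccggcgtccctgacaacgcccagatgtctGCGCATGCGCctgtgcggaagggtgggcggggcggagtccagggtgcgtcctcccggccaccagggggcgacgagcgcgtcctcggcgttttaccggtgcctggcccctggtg
Uqcr11 (chr10:80406822-80407071, minus strand): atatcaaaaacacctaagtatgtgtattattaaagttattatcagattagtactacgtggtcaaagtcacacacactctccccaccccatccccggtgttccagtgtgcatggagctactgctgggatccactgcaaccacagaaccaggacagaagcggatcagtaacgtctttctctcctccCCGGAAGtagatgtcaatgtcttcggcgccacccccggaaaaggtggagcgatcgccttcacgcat
Sdhd (chr9:50603850-50604099, minus strand): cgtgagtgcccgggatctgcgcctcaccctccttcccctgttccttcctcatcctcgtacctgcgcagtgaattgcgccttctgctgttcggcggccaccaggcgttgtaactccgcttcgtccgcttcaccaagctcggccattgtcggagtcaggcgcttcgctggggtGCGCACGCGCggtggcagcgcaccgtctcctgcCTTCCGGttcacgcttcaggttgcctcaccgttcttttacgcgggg
Sdha (chr13:74350241-74350490, minus strand): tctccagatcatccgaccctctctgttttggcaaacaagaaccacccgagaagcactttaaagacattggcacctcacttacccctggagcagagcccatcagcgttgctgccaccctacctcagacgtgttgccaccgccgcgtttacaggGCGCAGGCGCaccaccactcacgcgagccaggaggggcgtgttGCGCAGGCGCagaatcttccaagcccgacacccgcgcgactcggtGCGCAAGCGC
Ndufaf4 has 1 NRF1 match, 113 bases before the start, and Uqcr11 has 1 ETS match, 66 bases before it. Sdhd holds both, at 79 and 46 bases, while Sdha holds 3 NRF1 matches, at 98, 55 and 10 bases. Of 70 nuclear members with a promoter in the table, 13 (18.6%) held the NRF1 letters, against 3.86% of all 27025 promoters and 7.92% of those of tested genes. The ETS letters were in 12 members (17.1%), against 7.05% and 13.4%, and the GATA letters AGATAA in 6 (8.57%), against 10.3% and 6.22%. Among the 30 lower members with a promoter, 7 held the NRF1, 9 the ETS and 4 the GATA letters, and among the 39 that were tested and not called 6, 3 and 1 did. Such matches describe the letters and not binding.

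Complex I, the NADH dehydrogenase, takes in most of the chain's electrons. Of its 36 nuclear subunit genes 13 fell (36.1%, against 15.2% of all tested genes) and 23 did not pass, with a median of -0.47. Ndufa5, an accessory subunit of the matrix arm, had the largest called decrease, with 659.5, 415 and 386 in wild type and 183, 200.3 and 203 in -77-/-. All -77-/- libraries lay below wild type, and wild type replicate 1 stood above the other wild type libraries (log2 fold change -1.27, SE 0.27, limma adjusted p = 0.0017). Ndufb6, a subunit of the membrane arm, had 433, 589 and 479.8 in wild type and 211, 270.3 and 259 in -77-/-, without overlap (log2 fold change -1.01, SE 0.24, limma adjusted p = 0.0038). Ndufa1 and Ndufab1, the mitochondrial acyl carrier protein, each fell by 0.77 on the log2 scale (limma adjusted p = 0.0432 and 0.0224). Ndufab1 overlapped, since -77-/- replicate 3 at 1318 exceeded wild type replicate 3 at 1228. Those calls were less firm than the first pair: the adjusted p reached 0.158 for Ndufa1 and 0.101 for Ndufab1 over the alternatives, and each was lost on leaving out either of wild type replicates 1 and 2 or -77-/- replicates 1 and 2 (for Ndufa1 also without -77-/- replicate 3, without a filter on low values and with equal sums outside the mitochondrial genome).

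The core subunits of complex I carry the flavin, the iron-sulfur clusters and the quinone site. Of 7 nuclear core genes, 3 fell and 4 did not pass. Ndufs1, which holds several of the clusters, had 3348, 3951 and 3549 in wild type and 2611, 2355 and 2364 in -77-/- (log2 fold change -0.56, SE 0.11, limma adjusted p = 0.0013). Ndufv1 and Ndufv2, of the NADH-oxidising tip, fell by 0.48 and 0.55 on the log2 scale (limma adjusted p = 0.0155 and 0.0096), with adjusted p of 0.0597 for Ndufv1 without wild type replicate 3 and 0.0599 for Ndufv2 without wild type replicate 2. Of the 29 accessory subunits 10 fell.

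Assembly factors of complex I, which help to build it without staying in it, had a median of -0.92 over 5 tested genes, of which 3 fell. Ndufaf4 had 863, 964 and 733 in wild type and 279.6, 338 and 362 in -77-/- (log2 fold change -1.38, SE 0.20, limma adjusted p = 8.2e-05). Wild type and -77-/- libraries were far apart. Ndufaf1 had 429, 597 and 832 in wild type and 192, 283 and 271 in -77-/- (log2 fold change -1.28, limma adjusted p = 0.0019), and Ndufaf2 had 369.6, 360.2 and 328 in wild type and 199, 184 and 176 in -77-/- (log2 fold change -0.92, limma adjusted p = 0.0118). The remaining factors, Ndufaf3 at -0.23 and Atp5sl at 0.65 on the log2 scale, did not pass. Atp5sl bears the name of ATP synthase but encodes an assembly factor of complex I, and its -77-/- libraries all lay above wild type.

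Complex II, the succinate dehydrogenase, also serves the citrate cycle. Its membrane anchors fell while its catalytic subunits did not pass. Sdhd, an anchor, had 4546, 5959 and 5905 in wild type and 3686, 3259.6 and 3424 in -77-/- (log2 fold change -0.65, SE 0.12, limma adjusted p = 6.7e-04). The other anchor, Sdhc, had 1734, 1631 and 1991 in wild type and 1253, 1385 and 1188 in -77-/- (log2 fold change -0.48, SE 0.13, limma adjusted p = 0.0123). That call was lost without -77-/- replicate 3 (limma adjusted p = 0.0632). Sdha, the flavoprotein that oxidises succinate, had 5200.4, 5325 and 5187 in wild type and 5565, 5063 and 5103 in -77-/-, with means of 5238 ± 76.2 and 5244 ± 279 (SD, n = 3 here and throughout) and a log2 fold change of 0.00 (SE 0.10). Sdhb, the iron-sulfur subunit, had a log2 fold change of -0.19 (limma adjusted p = 0.292). Its values were 1730, 1922 and 1734 in wild type and 1393, 1645 and 1699.9 in -77-/-, without overlap. With equal medians of the tested genes Sdhb was called lower (limma adjusted p = 0.0450). The difference between anchors and catalytic subunits was not itself tested.

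Complex III, the cytochrome bc1 complex, had the highest share of called genes among the complexes: 6 of 8 fell, and 7 of 8 were without overlap. Over all tested genes, 15.2% were called lower and 21.4% were lower without overlap. The largest decreases were in small accessory subunits, though not in all of them. Uqcrb, another of these and named after its values were seen, had a log2 fold change of -0.42 and did not pass (limma adjusted p = 0.0614). Uqcr11 had 544, 716 and 562 in wild type and 279.6, 192 and 201 in -77-/- (log2 fold change -1.44, SE 0.24, limma adjusted p = 2.8e-04). Uqcrq, next to the cytochrome b core, had 879, 773 and 701 in wild type and 362, 389.8 and 351 in -77-/- (log2 fold change -1.09, SE 0.19, limma adjusted p = 4.1e-04). In both genes every -77-/- library was under the lowest wild type library by a wide margin. Uqcr10 fell from 977 ± 191 to 535 ± 133 and Uqcrh, the hinge protein that contacts cytochrome c1, from 1629.7 ± 225 to 912 ± 225. Uqcrfs1, the Rieske iron-sulfur protein, and the core protein Uqcrc2 fell by 0.39 and 0.41 on the log2 scale. Neither call held throughout, with adjusted p up to 0.111 without wild type replicate 2 for Uqcrfs1 and up to 0.101 without -77-/- replicate 3 for Uqcrc2; that of Uqcrfs1 was also lost without -77-/- replicate 3 and with equal sums outside the mitochondrial genome (0.0529), and that of Uqcrc2 without -77-/- replicate 2. Uqcrc1, the other core protein, had 2958 ± 556 and 2328 ± 197 and did not pass (limma adjusted p = 0.0834). Cyc1, the haem-bearing cytochrome c1, is outside the name rule, and it fell from 1516 ± 157 to 982 ± 129 with a limma adjusted p of 0.0048 (log2 fold change -0.63, SE 0.15). Cycs, cytochrome c itself, had 1459.8, 1835 and 1101 in wild type and 1086, 921 and 1384 in -77-/-, and these overlapped (log2 fold change -0.36, limma adjusted p = 0.178).

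Complex IV, the cytochrome c oxidase, had 5 of 15 tested nuclear genes lower (33.3%) and 1 higher (6.67%), against 15.2% and 16.9% of all tested genes. Cox5b, a zinc-binding subunit on the matrix side, had 1143, 1539.6 and 1331 in wild type and 805, 716 and 679.6 in -77-/- (log2 fold change -0.86, SE 0.16, limma adjusted p = 7.3e-04). Cox6a1 fell from 1096 ± 62.5 to 667 ± 92.9 and Cox7a2 from 1131 ± 229 to 682 ± 130.2, and Cox7c was the fifth, with a log2 fold change of -0.72. Without wild type replicate 2 the adjusted p of Cox7a2 was 0.0545. Several subunits of this complex exist as pairs of isoforms, and these were read side by side. Cox4i1, the common isoform of subunit 4, did not pass, with 4134, 5016 and 5545 in wild type and 5052, 4220.1 and 4509.6 in -77-/- (log2 fold change -0.09, SE 0.12). Its counterpart Cox4i2, best known from lung and from low oxygen, was the member that rose, with no read in wild type and 9.15, 46.7 and 70.9 normalized reads in -77-/-. In reads, 140 in -77-/- against 0 make it at least 45.8-fold higher, with 3 reads over the wild type group as the floor. The limma adjusted p was 0.0106, and the call was lost without -77-/- replicate 2 (0.0682) and without -77-/- replicate 3 (0.0817).

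Among the other isoforms of complex IV, Cox6b2, a form known from testis, had 243, 137 and 87.7 in wild type and 64.1, 24.3 and 41.0 in -77-/- (log2 fold change -1.81, SE 0.56, limma adjusted p = 0.0219). Wild type replicate 1 was the highest library, and without it the adjusted p was 0.134; the call was also lost without wild type replicate 2 and without -77-/- replicates 2 and 3. The common form Cox6b1 had 1455 ± 182 and 1154 ± 242 and did not pass (limma adjusted p = 0.125). Cox6a2, a heart and muscle form, had 7 reads in wild type, all in replicate 1, and 35 in -77-/-, a ratio of 4.91 (exact 95% interval 2.15 to 13.1), and did not pass. Cox7a1, another muscle form, had 0 and 14 reads, at least 4.58-fold higher, and Ndufa4l2 had 16 and 0, at least 5.43-fold lower. Neither was tested. Such bounds account for counting error alone, as PCR copies were not told apart by molecular identifiers. Ndufa4, now counted with complex IV, Cox7a2l, a factor of supercomplexes, and Cox8a had log2 fold changes of -0.49, -0.21 and -0.43 and did not pass.

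ATP synthase joins a catalytic head, F1, to a proton channel in the membrane. Of its 17 genes 6 fell (35.3%), against 15.2% of all tested genes. Atp5l, the g subunit at the dimer interface of the membrane part, had the largest called decrease of any member, with 676, 359 and 307 in wild type and 109, 90.4 and 94.8 in -77-/- (log2 fold change -2.10, SE 0.34, limma adjusted p = 2.1e-04). The -77-/- libraries were close together and all under the lowest wild type library, and wild type replicate 1 stood highest. Its pseudogene copy Atp5l-ps1 was read at 222, 0 and 155 in wild type and at 0 in the 3 -77-/- libraries. Since counting may split reads between such copies, the sum of both was also taken, and its ratio of means was -2.55 on the log2 scale. That is a different measure from the log2 fold change of -2.10, which is a difference of means of log2 values. The further copy Atp5l2, with means of 42.5 in wild type and 24.1 in -77-/-, was left out of this sum. Atp5k, the e subunit next to it, had 1044, 506 and 446 in wild type and 373, 201 and 212 in -77-/- (log2 fold change -1.29, SE 0.34, limma adjusted p = 0.0113). Wild type replicate 1 was again far above the rest, and the adjusted p was 0.0511 without it and without -77-/- replicate 3, and 0.0588 without -77-/- replicate 2. Atp5h, a subunit of the peripheral stalk, fell from 3004 ± 286 to 1969.7 ± 187, and Atp5e, a small subunit of the head's central stalk, from 524 ± 160.2 to 276 ± 24.2. Leaving out wild type replicate 1 or 2 or -77-/- replicate 3 ended the call of Atp5e, with adjusted p up to 0.0975.

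Of the 5 genes of the head, 2 fell, Atp5e as given above and Atp5b, against 15.2% of all tested genes. In 3 of the 5 all -77-/- libraries lay below wild type, against 21.4%. Log2 fold changes in the head ran from -0.88 to -0.09. Atp5b, which carries the catalytic sites, fell from 31358 ± 2667 to 25267 ± 1983, by 0.31 on the log2 scale (SE 0.09, limma adjusted p = 0.0167), but not without wild type replicate 2 (0.0633) or 3 (0.0684). Its partner Atp5a1 had 23138 ± 2004 and 21723 ± 1266 (log2 fold change -0.09, SE 0.09), and the rotor shaft Atp5c1 had a log2 fold change of -0.17 (SE 0.12). Neither passed, but with equal medians of the tested genes both were called lower (limma adjusted p = 0.0333 for Atp5a1 and 0.0316 for Atp5c1). The c ring of the channel is made from 3 genes that encode the same mature protein. Of these Atp5g3 fell from 3761 ± 936 to 2538 ± 126 (limma adjusted p = 0.0241), whereas Atp5g1 had 755 ± 178 and 498 ± 132 (limma adjusted p = 0.0591) and Atp5g2 1972 ± 476 and 1571 ± 311 (limma adjusted p = 0.237). The call of Atp5g3 was lost without any of the libraries but wild type replicate 3 and with equal sums outside the mitochondrial genome, with adjusted p up to 0.105. Atp5l2, a further copy of Atp5l, was read at 128 in wild type replicate 3, at 68.0 and 4.27 in -77-/- replicates 2 and 3 and at 0 elsewhere. Ndufb4 of complex I ranged from 0 to 75.8 within wild type. Neither Atp5l2 nor Ndufb4 can therefore be read between genotypes.

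Summed over each complex, nuclear transcripts were lower in -77-/- without overlap. As a share of the wild type mean, the -77-/- libraries stood at 77.7% ± 3.39 for complex I, 80.9% ± 2.08 for complex II, 69.7% ± 7.69 for complex III, 79.5% ± 9.96 for complex IV and 83.3% ± 4.53 for ATP synthase. The assembly factors of complex I stood at 52.8% ± 2.72. The 13 mitochondrial mRNAs together stood at 90.7% ± 12.3 in -77-/-, against a spread of 11.8 in wild type, and overlapped. Complex IV came closest to overlap among the nuclear sums, with 92.4% in the lowest wild type and 91.0% in the highest -77-/- library. These sums weigh abundant genes most, were read without a test. Among the -77-/- libraries, replicate 1 lay nearest to wild type over 86 nuclear members. Its median deviation from the mean of all 6 libraries was -0.10 on the log2 scale, against -0.28 and -0.31 in replicates 2 and 3. Its marker sums differed too: erythroid 7811 against 3210.03 and 4558, B cell 3529 against 1889.9 and 2076, monocyte and macrophage 26680.2 against 38002 and 29656. The part of these in the member values was not tested. Without -77-/- replicate 1, 46 members were called lower, and leaving out 1 library at a time gave between 26 (without wild type replicate 2) and that number.

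**Figure D2:**
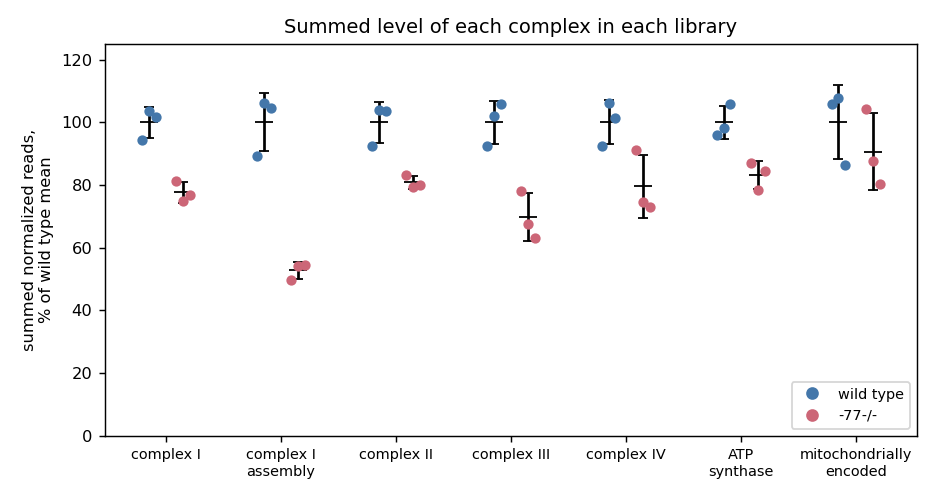
Summed normalized reads of each complex as a percentage of the wild type mean (vertical axis from 0), for nuclear genes by complex and for the 13 mitochondrially encoded mRNAs; points are libraries in the order of replicates 1 to 3, and bars the mean ± SD of 3. Each nuclear group lies lower in -77-/-, with complex I assembly factors lowest at 52.8%, while the mitochondrial sums overlap.

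Mitochondrially encoded mRNAs are cut from long transcripts of a circular genome, made by its own RNA polymerase. Of 13, 2 fell (15.4%) and 11 did not pass, a share near the 15.2% of all tested genes called lower. mt-Nd3, a subunit of complex I, had 1964, 1776 and 1679.8 in wild type and 1379, 1189 and 961 in -77-/- (log2 fold change -0.63, SE 0.15, limma adjusted p = 0.0047). mt-Co3, a core subunit of complex IV, had 13682, 13238 and 11524 in wild type and 10765, 8167 and 8375 in -77-/- (log2 fold change -0.50, SE 0.11, limma adjusted p = 0.0035). In both, no -77-/- library reached the lowest of wild type. mt-Co2, the copper-bearing subunit that takes electrons from cytochrome c, had 48954, 43347 and 32531 in wild type and 33784, 26661 and 23192 in -77-/-, so that -77-/- replicate 1 and wild type replicate 3 overlapped (log2 fold change -0.57, limma adjusted p = 0.0562). mt-Cytb, the core of complex III, and mt-Nd1 had log2 fold changes of -0.35 and -0.40 (limma adjusted p = 0.0606 and 0.116).

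The count of mitochondrial calls moved with single libraries. Wild type replicate 3 was the lowest wild type library for the 13 summed (521043 against 638102 and 649038) and -77-/- replicate 1 the highest of its group (628299 against 527711 and 483751). Without wild type replicate 3, 7 of the 13 were called lower, and without -77-/- replicate 1, 6 were. DESeq2 on recovered reads called 5, and equal medians of the tested genes gave 7. mt-Co1, the catalytic subunit of complex IV, had 204795, 198471 and 200497 in wild type and 225926, 201185 and 191459 in -77-/-, which overlapped, with a log2 fold change of 0.03 (SE 0.08), which turned to -0.17 with equal medians and to -0.04 without -77-/- replicate 1. mt-Nd5 and mt-Nd6 had log2 fold changes of 0.07 and 0.12, also below 0 with equal medians. mt-Nd4, mt-Nd2, mt-Nd4l and mt-Atp6 had log2 fold changes of -0.23, -0.23, -0.27 and -0.17. mt-Atp8 ranged from 3148 to 25551 within wild type alone, so its value of 0.04 (SE 0.93) says little. mt-Atp8 overlaps mt-Atp6 and mt-Nd4l overlaps mt-Nd4 on the genome, and mt-Nd6 lies on the opposite strand to the rest, so that how reads were assigned and whether strand was used, which the sources used here do not give, could change those values. Reads from nuclear copies of mitochondrial sequence could not be told apart from these mRNAs.

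Shares among the 13 do not depend on how libraries are scaled to each other. mt-Co2 made up 7.67%, 6.68% and 6.24% of their summed reads in wild type and 5.38%, 5.05% and 4.79% in -77-/-. For mt-Co3 the shares were 2.14%, 2.04% and 2.21% against 1.71%, 1.55% and 1.73%, and for mt-Nd3 0.308%, 0.274% and 0.322% against 0.219%, 0.225% and 0.199%. mt-Cytb went from 11.9% ± 0.0899 to 10.3% ± 0.485 and mt-Nd5 from 9.37% ± 0.171 to 10.9% ± 0.824. In all, the shares of 6 mRNAs (mt-Co2, mt-Co3, mt-Nd1, mt-Nd2, mt-Nd3 and mt-Cytb) were lower without overlap, and that of mt-Nd5 was higher. Set against the same sum, 13.7% of all tested genes were lower and 26.5% higher without overlap. mt-Co1 held 32.1%, 30.6% and 38.5% in wild type and 36.0%, 38.1% and 39.6% in -77-/-, and these overlapped. Shares show unequal change within the mix and not which mRNA changed. The ratio of mitochondrial to nuclear members was 3.90, 3.70 and 2.89 in wild type and 4.28, 4.02 and 3.54 in -77-/-, and these overlapped.

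**Figure D3:**
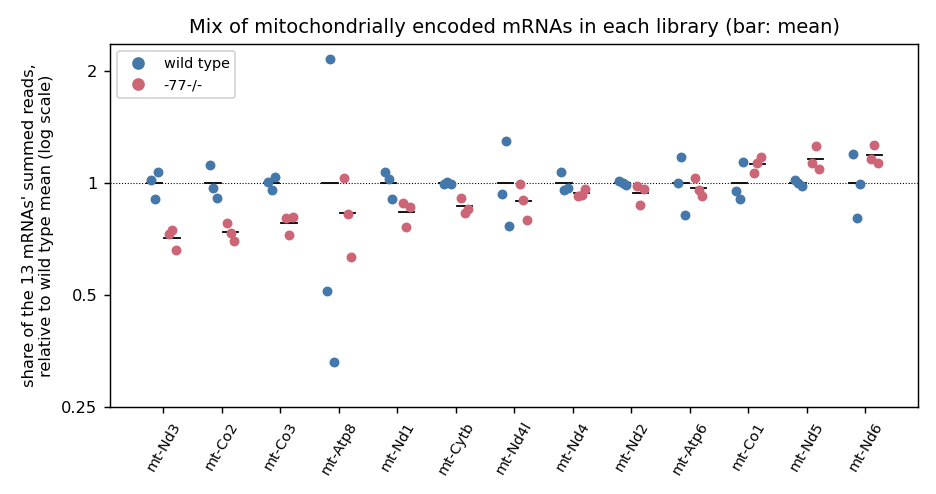
Share of each mitochondrially encoded mRNA in the summed reads of the 13, relative to its wild type mean (vertical axis, log scale), with points for the 3 libraries of each genotype and bars for their means. Shares of mt-Nd3, mt-Co2, mt-Co3, mt-Nd1, mt-Cytb and mt-Nd2 lie lower and that of mt-Nd5 higher in -77-/- without overlap, and mt-Atp8 scatters most within wild type.

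Nuclear genes that copy, transcribe and process mitochondrial DNA and RNA were read as a list of their own. Of 28 tested, 15 fell and 13 did not pass, with a median of -0.47, where 15.2% of all tested genes were lower. Tfam, which packages mitochondrial DNA and starts its transcription, had 2153, 2504 and 3054 in wild type and 1519, 1229 and 1424 in -77-/- (log2 fold change -0.88, SE 0.15, limma adjusted p = 2.8e-04). Peo1, the replicative helicase Twinkle, had 1098, 1235 and 1255 in wild type and 721, 439 and 585 in -77-/- (log2 fold change -1.06, SE 0.19, limma adjusted p = 4.7e-04). Supv3l1, an RNA helicase of mitochondrial RNA decay, fell from 1143 ± 101 to 613 ± 59.7, and Fastkd5, which takes part in processing of the mitochondrial precursor RNA, from 385 ± 90.5 to 154 ± 5.60. In each of these 4 genes all -77-/- libraries lay below all of wild type, and each was called in all 15 alternatives. Lrpprc, which stabilises mitochondrial mRNAs, was chosen after its values were seen, and it fell from 5781 ± 174 to 3735 ± 448 (log2 fold change -0.64, limma adjusted p = 4.1e-04). The polymerase Polrmt, also chosen then, had 308 ± 30.4 and 238 ± 54.4 and did not pass (limma adjusted p = 0.283). The ribosomal RNAs of the organelle were lower by 0.41 (mt-Rnr1, limma adjusted p = 0.0218) and 0.29 (mt-Rnr2, limma adjusted p = 0.0468) on the log2 scale. Both overlapped between genotypes, and the calls were lost in 7 and 10 of the 15 alternatives. None of the other 7 tested RNAs of that list, all transfer RNAs, passed.

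**Figure D4:**
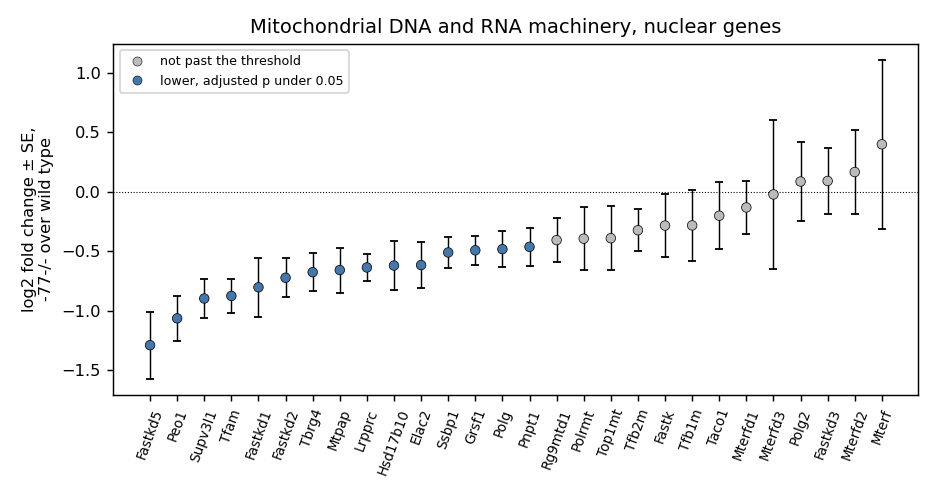
Log2 fold change ± SE (-77-/- over wild type, vertical axis) of 28 nuclear genes for mitochondrial DNA replication, transcription and RNA processing, in order of size. Blue points passed an adjusted p of 0.05 and grey ones did not; the 15 blue points are all below 0, from Fastkd5 at -1.29 to Pnpt1 at -0.46.

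Among 17 tested genes for other subunits, electron donors and carriers, 4 fell (23.5%) and 2 rose (11.8%), against 15.2% and 16.9% of all tested genes. Atpif1, the inhibitor of ATP hydrolysis by ATP synthase, which is also known for a role in haem synthesis, had 8302, 6558 and 6866 in wild type and 3047, 2456 and 2221 in -77-/- (log2 fold change -1.50, SE 0.13, limma adjusted p = 5.0e-07). No -77-/- library came near the lowest of wild type. Usmg5, a small ATP synthase subunit, fell by 0.65 on the log2 scale, with adjusted p up to 0.121 over the alternatives (lost without wild type replicate 2 and without -77-/- replicates 2 and 3). Slc25a4, an ADP/ATP carrier of the inner membrane best known from muscle, rose, with 1800.4, 2241 and 2286 in wild type and 3356, 3192 and 3641 in -77-/- (log2 fold change 0.69, SE 0.12, limma adjusted p = 5.2e-04), while the carrier Slc25a5, named after its values were seen, had 16376 ± 1642 and 15349 ± 1533 and did not pass. Of 30 tested assembly factors outside the named families 4 (13.3%) fell and 26 did not pass, a share no higher than the 15.2% of all tested genes called lower. Those that fell were Cox16, from 471 ± 66.5 to 237 ± 64.1, Cox17, a copper chaperone of complex IV, from 796 ± 179.8 to 398 ± 95.6, Ecsit, a complex I assembly factor, by 0.83 on the log2 scale, and Atpaf2, for the F1 head, by 0.69. That of Atpaf2 was lost without any 1 of the -77-/- libraries and without wild type replicate 2, where the limma adjusted p was 0.143. In 12 of these 30 (40.0%) the genotypes did not overlap, with -77-/- lower, against 21.4% of all tested genes. Of 13 coenzyme Q synthesis genes 1 fell (7.69%), Coq9, by 0.58 on the log2 scale, with a call lost in 7 of 15 alternatives.

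Of 17 tested regulators of mitochondrial genes, 5 fell (29.4%) and 2 rose (11.8%), so that rises were no more frequent than the 16.9% of all tested genes. Myc, a growth regulator that drives mitochondrial biogenesis among much else, had 902, 1004 and 1226 in wild type and 463, 669.8 and 741 in -77-/- (log2 fold change -0.76, SE 0.20, limma adjusted p = 0.0088). Tfam is also on this list. Hif1a, the oxygen-regulated factor that shifts cells toward glycolysis, rose from 1255 ± 130.2 to 2103 ± 315, by 0.74 on the log2 scale (SE 0.14, limma adjusted p = 9.9e-04). Sirt3, a mitochondrial deacetylase, rose from 91.6 ± 21.5 to 218 ± 80.6 (limma adjusted p = 0.0307), at low level and with a call lost in 5 of 15 alternatives, among them leaving out wild type replicate 1 or 3 or -77-/- replicate 1 or 2. Nrf1 and Gabpa, whose motif cores were counted in the promoters above and which are given for that reason, had 1202 ± 228 and 1006 ± 101 and 2789 ± 173 and 2393 ± 224, with log2 fold changes of -0.24 and -0.22, and did not pass. Gabpb1 and Gabpb2, for the other GABP subunit, were named after their values were seen. Gabpb2 fell by 0.37 on the log2 scale (limma adjusted p = 0.0147), with a call lost in 2 of 15 alternatives. Gabpb1 had a log2 fold change of 0.13 and did not pass.

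Respiratory chain mRNAs are short by the lengths used here, and over all tested genes the share of lower calls was highest in the shortest range. Transcript lengths came from GENCODE M21 as the median over a gene's protein-coding transcripts, for 86 of the 87 tested nuclear members. Such a length need not be that of the transcript expressed in these cells. The median over the members was 707 nt, against 2210.0 nt over 12713 tested genes. Below 600 nt, 16 of 30 members (53.3%) were called lower, against 24.1% of 474 tested genes, with medians of -0.69 and -0.20. From 600 to under 1000 nt the shares were 33.3% of 33 members and 20.2% of 1760 genes, and from 1000 to under 2000 nt 38.9% of 18 and 18.2% of 3443. In these 3 ranges the share of lower calls was higher in members than in all tested genes, which include the members, and 5 members were longer. Across 86 nuclear members, which share their libraries and are not independent, Spearman's rho of length and log2 fold change was 0.41, and across all 12713 genes 0.10. The part of length in the decreases was not tested further.

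**Figure D5:**
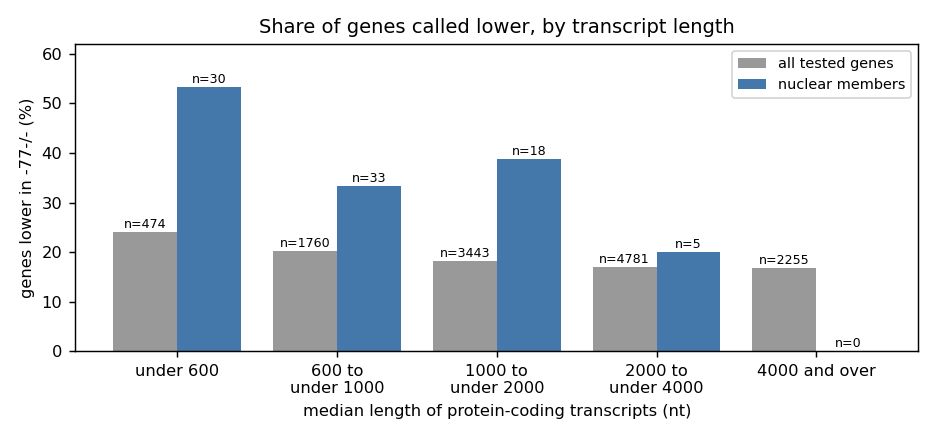
Share of genes called lower in -77-/- (vertical axis, from 0) in 5 ranges of transcript length, for all tested genes with a length (grey) and nuclear members (blue), with the number of genes above each bar. The share falls from 24.1% to 16.8% of all genes from the shortest to the longest range, and members lie above all genes in the 3 shortest ranges; only 5 members are in the fourth and none in the last.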

How the data were processed

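RNA-seq of the sorted cells labelled erythroid precursors was deposited by the authors as 1 table with their DESeq2 results and a value per library. The submitters' processing notes name mm9 and the tools STAR 2.5, Bowtie, DESeq2 and RSEM 1.2.31. The deposited file's own name gives Bowtie with RSEM and DESeq2 for these values, while the annotation and strand setting are not given in the sources used here. Library values as deposited by the authors are a normalized signal, gene counts divided by 1 size factor per library: 100% were whole multiples of 1 step per library (tolerance 0.01 of a read), which gave back whole reads. The authors' deposited table also holds a log2 fold change and a p-value per gene, which served only for the comparison of calls. In 8 of 19444 rows the cells were shifted, and these were left out.

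Limma 3.58.1 (R 4.3.3) with trend and robust empirical Bayes ran on log2(value + 1) for the 15821 genes with a mean of at least 10 in the higher genotype, with Benjamini-Hochberg adjustment over all of them; a count test had been planned for raw counts. edgeR 4.0.16, DESeq2 1.42.0 and limma-voom on recovered reads were alternatives, beside other pseudocounts, filters and scalings and leaving out each library. The fits were tried on simulated counts in which far fewer genes changed than were called here. That trial does not show how the calls behave under such broad change. Members, lists and alternatives were chosen with earlier results of these data known. Named are the mitochondrial, complex II and Cycs genes, up to 4 called genes per direction in each other group, up to 4 per pathway list, and isoform pairs; core subunits, Cox7c, Ndufaf3, Atp5sl, Atp5l2, Ndufb4, Pnpt1 and genes said to be so were added after their values were seen. The values of 1 member are not reported here.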

Additional observations from a re-analysis of the deposited data

How the results depend on the processing

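No paired analysis was possible because the labels give no replicate numbers and the numbers used here follow accession order. Over 15 alternatives, the count of lower members stayed within 1.5 times of 37 except with equal medians of the tested genes (68), and ranged from 26 to 46 on leaving out single libraries. The single higher member, Cox4i2, became 0 calls at a mean of at least 50 and 2 with equal sums outside the mitochondrial genome, and between 0 and 1 when 1 library was left out. Lower calls among the 13 mitochondrial mRNAs, 2 as reported, were 4 at a mean of at least 50, 5 with DESeq2 and 7 with equal medians, and 2 to 7 without 1 library. Counts over all genes stayed within 1.5 times, and higher genes made up 52.7% of calls, against 38.5% with equal medians (2186 higher and 3489 lower).

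Among the genes named with a fold change, several turned sign. Sdha was -0.0012 with edgeR, -0.0036 with limma-voom, -0.20 with equal medians and -0.043 to 0.025 without 1 library. With equal medians mt-Co1, mt-Nd5, mt-Nd6 and mt-Atp8 were -0.17, -0.13, -0.080 and -0.16, and mt-Atp8 was -0.46 with edgeR and -0.45 with DESeq2. Without 1 library Cox4i1 ran from -0.20 to 0.0088, mt-Atp6 from -0.41 to 0.010, mt-Co1 from -0.036 to 0.083, mt-Nd5 from -0.045 to 0.20 and mt-Atp8 from -0.61 to 0.90. The causes were not tested. Depth limits Cox4i2, Cox6a2, Cox7a1 and Ndufa4l2, which rest on 140 reads or fewer over 3 libraries.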
